A study of Mus musculus with 8 samples.

Results

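The miR-290 to miR-295 cluster, here called the miR-290 cluster, is a group of miRNA hairpins that mouse embryonic stem cells transcribe together. The 10 mature miRNAs described here were chosen by name: mmu-miR-290a-5p, mmu-miR-290a-3p, mmu-miR-291a-5p, mmu-miR-291a-3p, mmu-miR-292a-5p, mmu-miR-292a-3p, mmu-miR-293-3p, mmu-miR-294-3p, mmu-miR-295-5p and mmu-miR-295-3p (written without the prefix below). All 10 were among the 696 miRNAs listed for P19 cells and among the 1978 miRNAs listed for the 4 C2C12 hairpin libraries, and 0 of the 10 were among the 605 miRNAs listed for the C2C12 ATF4 pair. Small RNA was sequenced from 8 samples of mouse cell lines, 1 library each. P19 cells, a mouse embryonal carcinoma line, carried a control hairpin (P19 shNC) or a hairpin against Perk (P19 shPerk), the gene of an endoplasmic reticulum stress kinase. C2C12 cells, a mouse skeletal myoblast line, carried the same kinds of hairpin at day 0 (D0) and day 3 (D3) of differentiation. Others carried a control vector or an ATF4 vector. By the paper these were kept in growth medium without induced differentiation, and no day is given. The C2C12 hairpin lines were stable lentiviral lines selected with puromycin. For P19, the sources used here do not give how the lines were made, the day of harvest or whether differentiation had been induced. Perk mRNA is not measured by small RNA libraries, so these libraries hold no check of the knockdown. The authors checked the knockdown by western blot in C2C12 and in P19 cells. With 1 library per group there is no replicate check, no test between conditions was made, and intervals below cover counting error only. In bulk RNA a smaller number of cells expressing a miRNA cannot be told apart from less of it per cell.

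Each hairpin is cut by Drosha and Dicer into a short duplex with a 5p and a 3p strand, and one strand or the other is kept in Argonaute, where bases 2 to 8, the seed, pair with target mRNAs. The cluster is among the most abundant miRNA sources of mouse embryonic stem cells and falls silent when these cells differentiate. Several of its 3p strands carry the AAGUGC core that they share with the miR-302 family, and these miRNAs are known for promoting cell cycle progression and the pluripotent state.

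The sequences below show which members share a seed, since the values below are given by strand and by seed. They are the RefSeq mature sequences of GRCm38.p6, written 5′ to 3′ with the seed in capitals, and 9 of the 10 members had an entry. miR-292a-3p is named without a sequence.
miR-290a-5p: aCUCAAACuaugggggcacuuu
miR-292a-5p: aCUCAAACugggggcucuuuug
miR-295-5p: aCUCAAAUguggggcacacuuc
miR-291a-5p: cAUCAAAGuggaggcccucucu
miR-291a-3p: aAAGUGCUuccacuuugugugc
miR-294-3p: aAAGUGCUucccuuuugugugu
miR-295-3p: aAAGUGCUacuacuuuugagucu
miR-290a-3p: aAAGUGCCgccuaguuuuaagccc
miR-293-3p: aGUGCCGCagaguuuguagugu

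The members miR-290a-5p and miR-292a-5p share CUCAAAC, and miR-291a-3p, miR-294-3p and miR-295-3p share AAGUGCU. miR-290a-3p differs from the latter in the last seed base, and miR-293-3p has the seed GUGCCGC, without the AAGUGC core at bases 2 to 7. The P19 table also listed 4 other mature miRNAs of the cluster, which are set beside the members where they complete a hairpin. Their sequences are shown because 2 of them carry seeds of the members.
miR-291b-5p: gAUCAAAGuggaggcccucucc
miR-291b-3p: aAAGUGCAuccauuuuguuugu
miR-293-5p: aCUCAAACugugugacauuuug
miR-294-5p: aCUCAAAAuggaggcccuaucu
miR-291b-5p differs from miR-291a-5p at 2 of 22 positions, C1G and U22C, counted from the 5′ end of miR-291a-5p. How reads that match several miRNAs were counted is not given in the sources used here, so reads of this pair may be split between them.

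In GRCm38 the cluster lies on the plus strand of chromosome 7 within 2216 bp, at chr7:3218626-3220841. Its 7 hairpins follow in the order Mir290a at chr7:3218626-3218708, Mir291a at chr7:3218919-3219000, Mir292 at chr7:3219189-3219270, Mir291b at chr7:3219482-3219560, Mir293 at chr7:3220343-3220422, Mir294 at chr7:3220641-3220724 and Mir295 at chr7:3220773-3220841. All but Mir290a lie within an untranslated exon of Nlrp12, which the annotation places on the opposite strand. The annotation also has 2 hairpins on the minus strand, Mir290b and Mir292b, which overlap Mir290a and Mir292. Their mature miRNAs were not listed in P19 cells and had 0 reads in the C2C12 hairpin libraries.

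The P19 values were deposited as RPM (reads per 1000000 miRNA reads), and their smallest steps gave depths of 7916065 reads for shNC and 4456896 reads for shPerk, so that 1 RPM was 7.92 and 4.46 reads. The C2C12 hairpin libraries held 8800977 to 11993448 reads. The pluripotency and muscle markers followed the labels, and the neuronal markers did not. The miR-302 cluster, which also holds miR-367 and is the other large cluster of pluripotent cells, took 17.1% of the P19 shNC library. The 4 muscle miRNAs miR-1a-3p, miR-133a-3p, miR-133b-3p and miR-206-3p summed to 34.5 RPM there. They summed to 3839 to 88480 CPM (counts per 1000000 counted reads) in the 4 C2C12 hairpin libraries. The neuronal miRNAs named below summed to 3685 RPM in P19 shNC cells. In C2C12 cells at D0 they summed to 193 CPM with shNC and 2784 CPM with shPerk. At D3 the sums were 588 CPM and 4220 CPM. miR-9-5p alone had 3359 RPM in P19 shNC cells. In C2C12 cells it had 173 CPM with shNC and 2641 CPM with shPerk at D0, and 551 CPM and 4044 CPM at D3. miR-124-3p had 198 RPM in P19 shNC cells and 0 reads in each of the 4 C2C12 hairpin libraries. miR-206-3p was not listed in P19 cells.

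The cluster was one of the main sources of miRNA in P19 cells. In shNC cells the 10 members summed to 156563 RPM, or 15.7% of all miRNA reads, and in shPerk cells to 129545 RPM, or 13.0%. With the 4 other miRNAs the cluster took 16.8% and 13.5%. The members spread over more than 3 orders of magnitude. Of the 10, 3 were among the 10 most abundant miRNAs in either library and 7 were among the 50 most abundant in either library.

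Among the 5p strands, miR-292a-5p stood far above the rest, with 73206 RPM in shNC and 46216 RPM in shPerk cells. It ranked 2 of 696 in shNC and 6 in shPerk cells. miR-291a-5p had 6092 RPM in shNC and 2606 RPM in shPerk cells. These strands carry different seeds, and both had fewer RPM in the knockdown library. miR-290a-5p, which shares the seed of miR-292a-5p, had 2860.01 RPM in shNC and 742 RPM in shPerk cells. miR-295-5p, the minor strand of its hairpin, had 408 RPM in shNC and 256 RPM in shPerk cells. All 4 members from the 5p side were lower in RPM in the knockdown library, at 0.631, 0.428, 0.259 and 0.628 times the shNC value in the order named, and so were 72.0% of all 696 listed miRNAs.

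Of the 6 members from the 3p side, 3 were lower and 3 higher in RPM in the knockdown library. miR-293-3p, without the AAGUGC core at the seed, had 31614 RPM in shNC and 31218 RPM in shPerk cells, ranks 6 and 7. miR-295-3p had 20159.8 RPM in shNC and 18752 RPM in shPerk cells, ranks 10 and 9. Both were slightly lower in RPM in the knockdown library, at 0.987 and 0.930 times the shNC value. miR-294-3p, known for aiding the reprogramming of somatic cells, had 8488 RPM in shNC and 9272 RPM in shPerk cells. miR-291a-3p, with the same seed, had 7146 RPM in shNC and 10312 RPM in shPerk cells. miR-292a-3p had 6557 RPM in shNC and 10145 RPM in shPerk cells. These last 3 had more RPM in the knockdown library, at 1.09, 1.44 and 1.55 times the shNC value, and miR-291a-3p ranked 33 in shNC and 19 in shPerk cells and miR-292a-3p 35 and 20. miR-290a-3p was the least abundant member, with 33.1 RPM in shNC and 25.4 RPM in shPerk cells, or 262 and 113 reads, 0.766 times the shNC value. The plot of levels shows these values by strand.

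**Figure D1:**
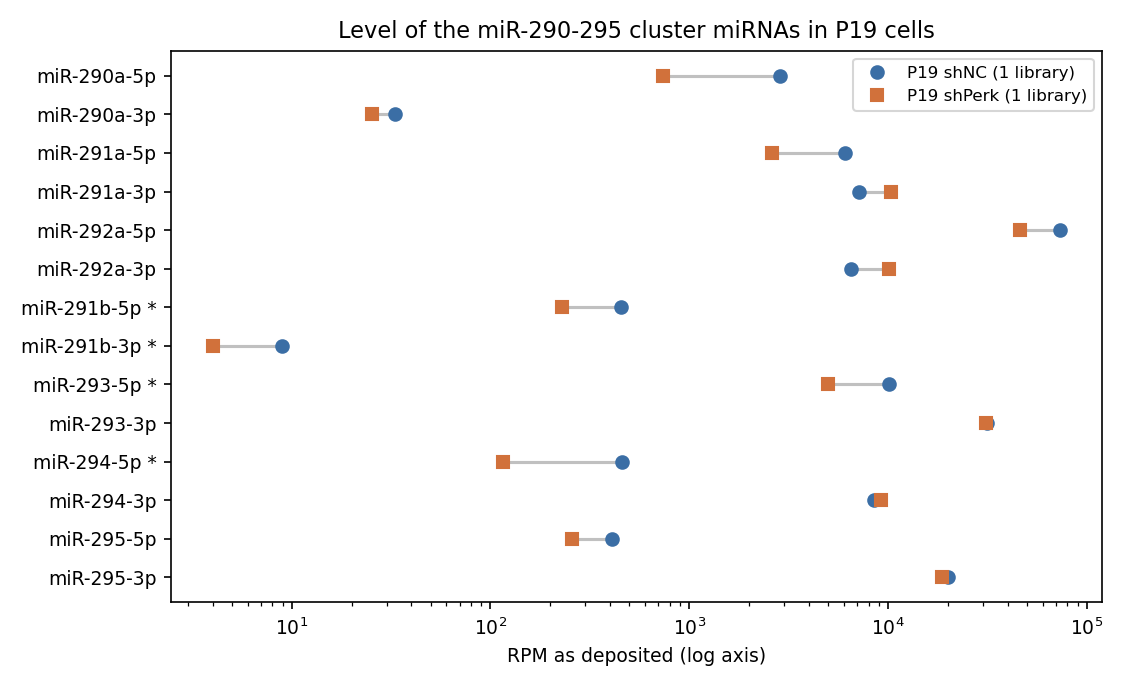
RPM as deposited (log axis) of the 10 members and, with an asterisk, the 4 other cluster miRNAs in P19 shNC (blue circles) and P19 shPerk (orange squares), 1 library each. The 7 points of the 5p strands lie lower in shPerk cells. On the log axis the widest gap is that of miR-294-5p, from 457 to 116 RPM, while miR-293-3p and miR-295-3p nearly coincide.

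The other 4 cluster miRNAs had fewer RPM in the knockdown library. miR-293-5p had 10070.4 RPM in shNC and 5019 RPM in shPerk cells. miR-294-5p had 457 RPM in shNC and 116 RPM in shPerk cells. miR-291b-5p had 452 RPM in shNC and 228 RPM in shPerk cells. miR-291b-3p, the only 3p strand of these 4, had 8.97 and 4.04 RPM, which were 71 and 18 reads. With the members, 7 of 7 listed 5p strands and 4 of 7 listed 3p strands of the cluster had fewer RPM in shPerk cells, against the same 72.0% of all listed miRNAs.

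By hairpin, both strands summed, miR-292a was the largest source, at 47.6% of the cluster's RPM in shNC and 41.8% in shPerk cells. miR-293 followed with 24.9% and 26.9%, and miR-295 with 12.3% and 14.1%. miR-291a gave 7.90% and 9.58%, and miR-294 gave 5.34% and 6.96%. The first hairpin along the chromosome, miR-290a, gave 1.73% and 0.569%, and miR-291b gave 0.275% and 0.172%. The order of the 7 hairpins by level was the same in both libraries. The sum of the miR-291a hairpin was 13238 RPM in shNC and 12918 RPM in shPerk cells, while its 5p strand had fewer and its 3p strand more RPM in shPerk cells.

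To set the libraries on a common scale, values were scaled with the trimmed mean of M values (TMM), which takes the bulk of the miRNAs to be equal between libraries, and a miRNA was called past a log2 fold change of 1 in either direction. On this scale 1 of the 10 members was called lower, and 17.7% of all 696 listed miRNAs were. It was miR-290a-5p, with a log2 fold change of -1.34 (95% counting interval -1.40 to -1.29). Called higher were 2 of the 10 members, and 17.7% of all listed miRNAs were. They were miR-291a-3p, at 1.13 (1.12 to 1.15), and miR-292a-3p, at 1.23 (1.22 to 1.25). The share of members called was close to that of all miRNAs in both directions.

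The other 7 members stayed within the fold limit on the TMM scale. The log2 fold change was -0.62 for miR-291a-5p, -0.06 for miR-292a-5p and -0.07 for miR-295-5p. It was 0.73 for miR-294-3p, 0.59 for miR-293-3p, 0.50 for miR-295-3p and 0.22 for miR-290a-3p. The counting interval of miR-290a-3p ran from -0.11 to 0.54 and that of miR-295-5p from -0.17 to 0.03, so both included 0. On this scale 4 of the 10 members and 51.7% of all listed miRNAs were below 0. The median log2 fold change was -0.34 over the 4 members from the 5p side, 0.66 over the 6 from the 3p side and 0.36 over all 10, and it was -0.04 over all 696 miRNAs.

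These values depend on the scale. When each library was scaled to its total miRNA reads instead, every log2 fold change was lower by 0.61 and the median of all 696 miRNAs was -0.65. Then 2 of the 10 members were called lower, miR-290a-5p at -1.95 and miR-291a-5p at -1.23, and 35.5% of all listed miRNAs were. None of the 10 members was called higher, against 6.61% of all listed miRNAs, with miR-292a-3p at 0.63 and miR-291a-3p at 0.53. By this scaling 7 of the 10 members and 72.0% of all listed miRNAs were below 0. Over 6 scalings, the 4 members from the 5p side were below 0 in each, miR-291a-3p, miR-292a-3p and miR-294-3p were above 0 in each, and the sign of miR-290a-3p, miR-293-3p and miR-295-3p differed between scalings. The highest value over these scalings was -0.01 for miR-292a-5p and -0.02 for miR-295-5p, so both came close to 0.

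**Figure D2:**
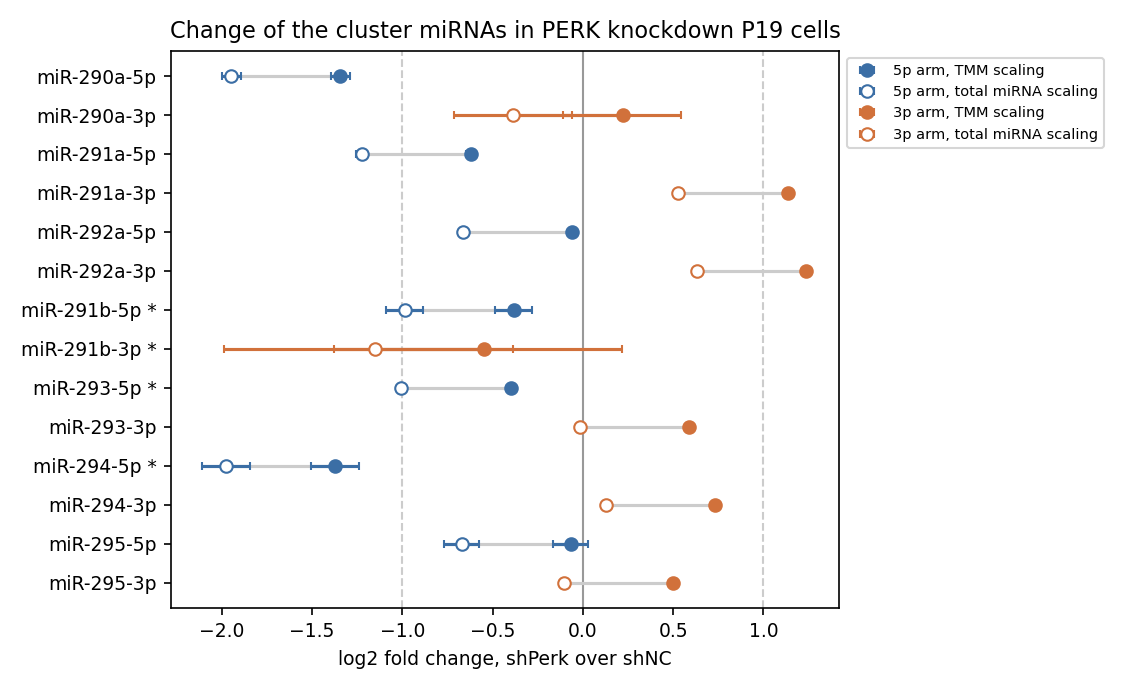
Log2 fold change of the cluster miRNAs, P19 shPerk over P19 shNC (1 library each), with 95% counting intervals; filled points are TMM scaled, open points are scaled to total miRNA reads, and an asterisk marks cluster miRNAs that are not among the 10 members. The 5p points (blue) lie below 0 on both scales, and miR-291a-3p and miR-292a-3p pass the dashed limit of 1 on the TMM scale only.

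The miR-302 cluster took 17.1% of the shNC library and 42.8% of the shPerk library, 2.51 times the RPM. On the TMM scale 7 of its 10 listed miRNAs were called higher, with a median log2 fold change of 1.75, and by total scaling 6 of 10 were, with a median of 1.15. Its most abundant members were miR-302b-3p, at 76522 RPM in shNC and 180818 RPM in shPerk cells, miR-302d-3p, at 42087 RPM and 129217 RPM, and miR-302a-5p, at 27182 RPM and 50322 RPM. Over the same libraries the 3p strands of the miR-290 cluster took 7.40% and 7.97% of the library and its 5p strands 9.36% and 5.52%. The miR-17 seed family, whose seed holds the same AAGUGC letters shifted by a base, took 5.66% and 3.27%, with 0 of 6 miRNAs called on the TMM scale and 2 of 6 called lower by total scaling. Its highest were miR-20b-5p, at 22811 RPM in shNC and 13343 RPM in shPerk cells, miR-106a-5p, at 12444 RPM and 5874 RPM, and miR-93-5p, at 7156 RPM and 5301 RPM. The neuronal miRNAs miR-9-5p, miR-9-3p, miR-124-3p and miR-153-3p summed to 3685 RPM in shNC and 1523 RPM in shPerk cells, and the muscle miRNAs to 34.5 and 96.9 RPM. The part of these shifts in the members' change was not tested.

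**Figure D3:**
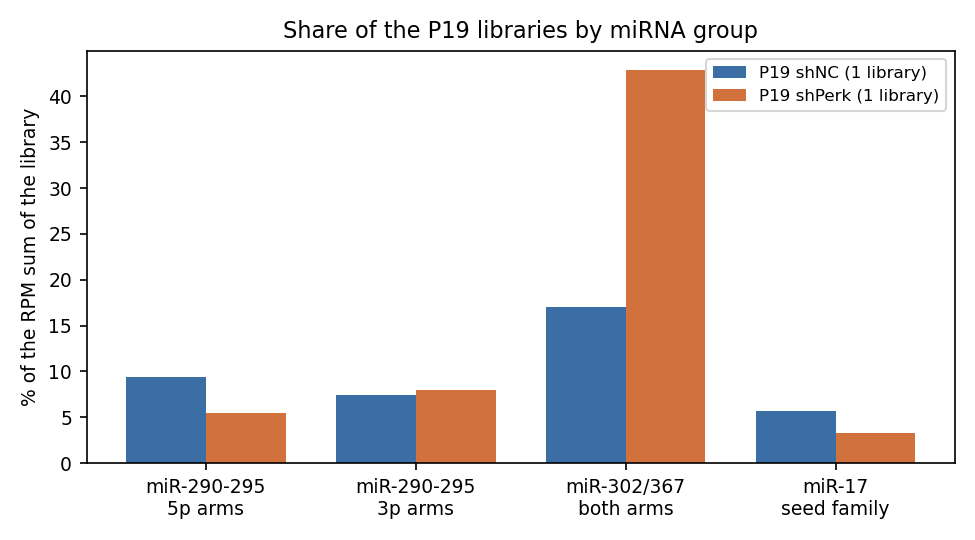
Share of the RPM sum of each P19 library (%), 1 library per bar, for the 5p strands and the 3p strands of the miR-290 cluster, the miR-302 cluster and the miR-17 seed family. The 5p strands stood at 9.36% in shNC and 5.52% in shPerk cells, the 3p strands were at 7.40% and 7.97%, and the miR-302 cluster stood at 17.1% and 42.8%.

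The balance between the strands of a hairpin is a ratio within a library and so does not depend on the scale between libraries. The preferred strand differed along the cluster. In shNC cells the 5p strand made up 98.9% of the miR-290a reads (95% Clopper-Pearson interval 98.7% to 99.0%) and 91.8% of the miR-292a reads (91.7% to 91.8%). At miR-291a the strands were nearly even, with 46.0% from the 5p side (45.7% to 46.3%). At miR-293 the 5p strand made up 24.2%, at miR-294 5.11% and at miR-295 1.98%. At miR-291b it made up 98.1%. The 3p strand was therefore the minor one at miR-290a, miR-292a and miR-291b and the major one at miR-291a, miR-293, miR-294 and miR-295.

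In shPerk cells the 5p share was lower at 6 of the 7 hairpins. At miR-291a it was 20.2% (19.8% to 20.5%), so that the 3p strand outnumbered the 5p strand 3.96-fold, against 1.17-fold in shNC cells. At miR-292a it was 82.0% (81.8% to 82.1%), and the excess of 5p over 3p went from 11.2-fold to 4.56-fold. At miR-290a it was 96.7% (96.0% to 97.3%), an excess of 86.4-fold in shNC and 29.3-fold in shPerk cells. At miR-295 it was 1.35% (1.27% to 1.43%) against 1.98% (1.92% to 2.05%). At these 4 hairpins, with both strands among the members, the major strand was the same in both libraries. The intervals are narrow because the reads are many, and they do not cover the spread between cultures. At miR-293 the 5p share was 13.9% and at miR-294 1.24%. At miR-291b it was 98.3% (97.3% to 99.0%), with only 18 reads of the 3p strand, and its interval overlapped that of shNC cells (97.6% to 98.5%).

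**Figure D4:**
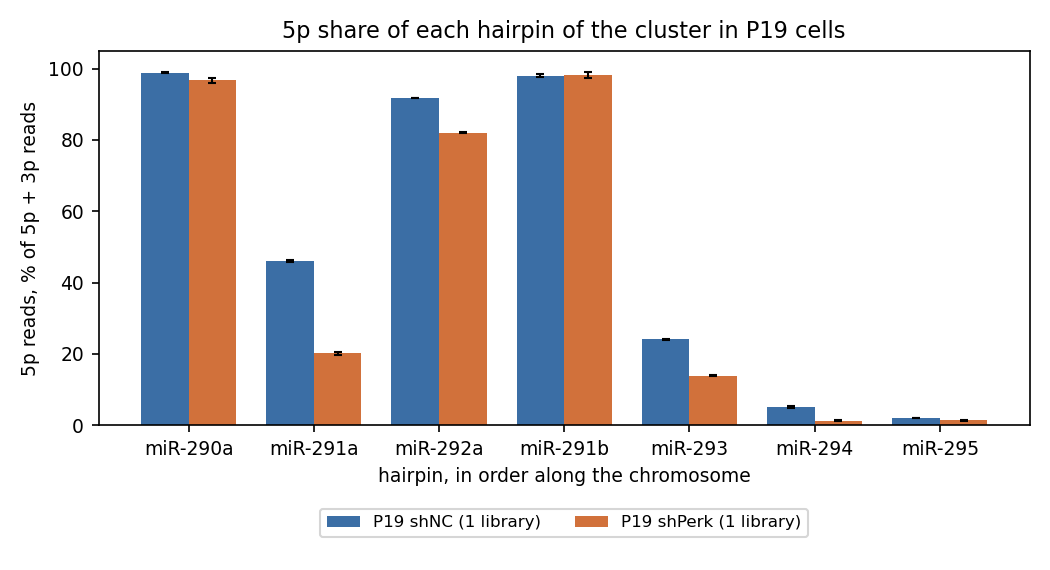
5p reads as % of the 5p and 3p reads of each hairpin of the cluster in P19 shNC (blue) and P19 shPerk (orange), 1 library per bar, with 95% Clopper-Pearson intervals. The shPerk bar is the lower one at every hairpin except miR-291b, with the widest gap at miR-291a, 46.0% against 20.2%.

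On the log2 scale of 5p over 3p, the change from shNC to shPerk cells was -2.10 at miR-294, -1.75 at miR-291a, -1.56 at miR-290a, -1.29 at miR-292a, -0.99 at miR-293 and -0.57 at miR-295. At miR-291b it was 0.16, with a counting interval of -0.59 to 0.92. The median over the 7 hairpins was -1.29, and it was 0.11 over all 209 P19 hairpins with both strands listed. Of the 7 hairpins, 6 were below 0 and 4 below -1, and of all 209 hairpins 43.5% were below 0 and 10% below -1, while 0 of the 7 and 17.2% of all were above 1. Over the 4 hairpins with both strands among the members, the median was -1.43, with 4 of 4 below 0 and 3 of 4 below -1.

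Of all hairpins, 0.478% had a lower change than miR-294 and 22.5% a lower change than miR-295, while 51.2% had a lower change than miR-291b. Where both strands had at least 10 RPM in both libraries, the median change was 0.07, and 8.87% of the hairpins were below -1. Hairpins of the cluster were among these. The hairpins outside the cluster, without this limit, had a median change of 0.16, and 8.42% of them were below -1. The 4 miR-302 hairpins also had a lower ratio of 5p over 3p in shPerk cells, with a change of -1.47 at miR-302d, -1.33 at miR-302c, -0.93 at miR-302b and -0.74 at miR-302a. Hairpins of one cluster come from one transcript and members share bases, so they are not independent of each other.

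**Figure D5:**
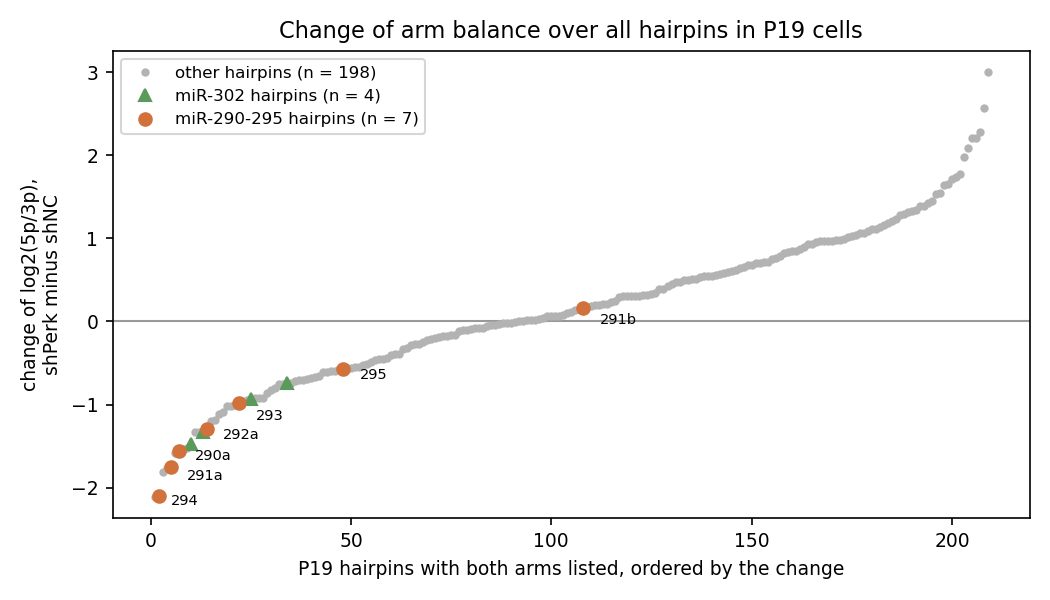
Change of log2(5p/3p) from P19 shNC to P19 shPerk (1 library each) for the 209 hairpins with both strands listed, ordered by the change; orange circles are the 7 miR-290 hairpins, green triangles the 4 miR-302 hairpins and grey points the others. Of the 7 orange circles, 6 lie below 0, from -0.57 to -2.10, and miR-291b lies at 0.16.

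The members with a sequence were also grouped by seed. The CUCAAAC seed of miR-292a-5p, miR-290a-5p and miR-293-5p summed to 86136 RPM in shNC and 51977 RPM in shPerk cells, 8.62% and 5.20% of the library. The AUCAAAG seed of miR-291a-5p and miR-291b-5p summed to 6544 RPM and 2834 RPM. No other listed miRNA with a RefSeq sequence had either seed.

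The AAGUGCU seed had more RPM in the knockdown library. With miR-302b-3p and miR-302d-3p, which share it, it summed to 154403 RPM in shNC and 348372 RPM in shPerk cells, 15.4% and 34.8% of the library. The 3 members with this seed gave 35794 RPM and 38337 RPM of it, so their part of the seed's sum was 23.2% in shNC and 11.0% in shPerk cells. Among the 573 of 696 listed miRNAs that matched a RefSeq sequence, the letters AAGUGC, searched on the mature strand, stood in 16, and within the first 9 bases in 15, of which 5 belonged to the cluster. The member miR-292a-3p and miR-302a-3p had no RefSeq entry and are in none of these seed sums and counts. The seed AAGUGCA of miR-291b-3p was shared with miR-350-5p, which had 33.9 RPM in shNC and 23.1 RPM in shPerk cells. A match of letters describes the sequence and not a target.

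In C2C12 cells the cluster was near absent. The 10 members together had 15 reads in shNC cells at D0 (exact Poisson interval 8.40 to 24.7), or 1.32 CPM, and 9 reads in shNC cells at D3 (4.12 to 17.1), or 0.75 CPM. In shPerk cells they had 0 reads at D0, which allows up to 0.341 CPM by a limit of 3 counts, and 2 reads at D3 (0.242 to 7.22), or 0.212 CPM. These sums are a few reads in libraries of at least 8800977 reads, and no fold change is given for them.

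The reads that were there belonged mostly to miR-292a-5p, the most abundant member in P19 cells. It had 7 reads in shNC cells at D0, 0 in shPerk cells at D0, 6 in shNC cells at D3 and 2 in shPerk cells at D3, which made 15 of the 26 reads over the 4 libraries. miR-293-3p, next in P19 cells, had 3, 0, 1 and 0 reads in the same order. miR-291a-3p and miR-292a-3p each had 1 read in shNC cells at D0 and 1 at D3. miR-290a-5p, miR-294-3p and miR-295-3p each had 1 read, in shNC cells at D0, and miR-290a-3p, miR-291a-5p and miR-295-5p had 0 in all 4 libraries. Over the 4 libraries the members had 0.626 CPM, against 156563 RPM in P19 shNC cells, values from tables that were normalised separately. Where the few reads came from was not tested.

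The miR-302 cluster had 0, 0, 1 and 0 reads in C2C12 shNC and shPerk cells at D0 and then at D3, fewer than the 26 reads of the members. In the table of the vector and ATF4 libraries, 0 of 18 mature miRNAs of the miR-290 cluster and 0 of 10 of the miR-302 cluster were listed, and miR-206-3p, a muscle miRNA, was listed at 2351 RPM with the vector. Whether that table lists a miRNA only above some value is not given in the sources used here, so no limit is given.

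The median profile of the 10 members over the 4 C2C12 hairpin libraries and the 2 P19 libraries was compared with that of each miRNA outside the cluster by the Euclidean distance of log2 values with 1 added. The most alike was miR-302c-3p, at a distance of 0.63, with 0 CPM in the 4 C2C12 hairpin libraries, 4502 RPM in P19 shNC and 10616 RPM in P19 shPerk cells. It was followed by miR-363-3p at 1.08, miR-381-3p at 1.34, miR-541-5p at 1.58 and miR-300-3p at 2.18. miR-363-3p had 13889 RPM in shNC and 10863 RPM in shPerk P19 cells, and miR-300-3p had 7230.4 RPM and 2148 RPM. The members themselves lay between 0.15 for miR-292a-3p and 11.5 for miR-290a-3p from their own median, so that several members were less like it than these 5 miRNAs.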

How the data were processed

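The RNA was extracted from C2C12 or P19 cells, and small RNA libraries were sequenced by a company. The tables of the C2C12 hairpin lines, as the authors deposited them, give a read count per mature miRNA. For the P19 pair and the vector and ATF4 pair the authors deposited RPM values. In the P19 table, values under 1 RPM were listed at 0. Reads were annotated with bowtie, and the submitters' processing notes name mm10 and GRCm38. The bowtie version, the miRNA release and the handling of reads with several matches are not given in the sources used here. The deposited tables also hold fold changes, p-values and q-values of the authors' own comparisons, which were not used. All columns of values could be mapped to a sample.

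Groups came from the sample titles. The members and the lists set beside them were chosen with earlier results of these data known. All 10 members were named, with the other cluster miRNAs, the listed miRNAs that share a seed, the 3 highest of each list and the 5 most alike. P19 RPM values were scaled by edgeR 4.0.16 in R 4.3.3 (TMM) over all 696 listed miRNAs, with 0 left as listed. For fold changes and strand ratios 0 was set to 1 RPM. Each P19 value was divided by the smallest step of its library to give reads, and 98.3% (shNC) and 98.8% (shPerk) of the values came within 0.1 read of a whole number, against 20% by chance. These reads served for the 95% intervals, for the strand shares and fold excesses of each hairpin, and for the read numbers given for P19 cells. Intervals are Clopper-Pearson or exact Poisson and, for the change of strand balance, from the normal approximation on the log scale. Reads are not independent molecules, so intervals and limits cover counting error only. Other steps used Python 3.11.15, scipy 1.17.1 and pandas 2.3.3, and the scaling and fold change step was tested on simulated data. Alternatives were other scalings, other treatments of 0 (0.5 in its place, or 0.5 or 2 added to every value), fold limits, filters on low values, ways of summing the strands and pooling of C2C12 libraries.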

Additional observations from a re-analysis of the deposited data

How the results depend on the processing

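Against 1 of 10 members lower and 2 higher on the TMM scale, with a median log2 fold change of 0.36, scaling to total miRNA reads gave 2 lower and 0 higher, with a median of -0.24, and upper quartile scaling gave 1 higher, with a median of 0.22. A log2 fold limit of 0.58 gave 2 lower and 4 higher members, and a limit of 1.5 gave 0 and 0. Of all 696 miRNAs, 123 were lower and 123 higher, against 247 and 46 by total scaling, 191 and 201 at a limit of 0.58, and 74 and 52 at a limit of 1.5. With a mean of at least 10 RPM, 100 of 489 were lower and 72 higher, and with at least 100 RPM, 58 of 272 were lower and 42 higher. The members' share of the library, 15.7% in shNC and 13.0% in shPerk cells, was 16.96% and 15.8% without the most abundant miRNA and 15.9% and 13.1% with identical values counted once. The change of strand balance, a median of -1.29 over the 7 hairpins, was -0.87 when all 5p strands were summed against all 3p strands. In C2C12 cells, 1.32 CPM in shNC and 0 in shPerk cells at D0 became 0.626 CPM with the 4 hairpin libraries summed. Total scaling without the miR-302 cluster and the limit of 10 RPM for both strands were chosen after seeing the data. That scaling gave 1 lower and 2 higher members, with a median of 0.29. Of the values for single miRNAs under other scalings and other treatments of 0, 62 stayed within and 50 moved beyond their counting interval. All 50 came from the other scalings. Setting 0 to 0.5 or adding 0.5 or 2 to every value moved no value beyond its interval, and no listed cluster miRNA was at 0 in P19 cells.

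No paired analysis was possible because each group held 1 library and the labels give no replicate numbers; for the same reason no library was left out in turn. Depth limits miR-290a-3p and miR-291b-3p in P19 cells and all members in C2C12 cells, where a count of 0 allows up to 0.25 to 0.341 CPM.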
